A study of Mus musculus with 24 samples.

Results

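A set of 8 genes that mark red cell precursors was followed, Alas2, Slc4a1, Epb42, Ahsp, Hemgn, Rhag, Kel and Klf1, in mouse ventricle tissue. Each was read from the deposited expression values by its probe set with a single gene symbol, the brightest where there were several. Of the 8 genes, 7 were measured, each by 1 probe set, among 18819 genes tested, and Ahsp was not analysed here. The 24 arrays held 1 heart each and fell into 4 groups of 6. They were P30 KO, P30 WT, newborn KO and newborn WT hearts of C57/Bl6 mice, labelled day 30 for P30 and day 1 to 2 for newborn. KO hearts lacked 1 gene in cells that had expressed the Nkx2-5 Cre driver, which acts in the heart lineage, and lacked another gene in every cell of the animal. WT hearts were labelled wild type. No allele or treatment was shared by all 4 groups. Each genotype was read here from the sample label and was not checked on the arrays. The paper reports genotyping by PCR on tail DNA. It also reports remnant protein of the gene removed through Cre in neonatal KO hearts.

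Red cells mature from nucleated erythroblasts, which load themselves with haemoglobin and heme, build a membrane held to a spectrin skeleton, and then expel the nucleus. In the mouse the liver makes red cells before birth and for some days after it, and the bone marrow and spleen take over. In heart samples these transcripts are known mainly from the blood the tissue holds, in young red cells that still carry RNA. The members cover several steps of this programme. Alas2 encodes the erythroid enzyme that starts heme synthesis. Slc4a1 (band 3, the anion exchanger), Epb42 (protein 4.2), Rhag (the Rh-associated glycoprotein) and Kel (the Kell blood group antigen) are membrane genes. Klf1 is the erythroid Krüppel-like transcription factor, Hemgn (hemogen) is a nuclear protein of blood precursors, and Ahsp binds free alpha-globin.

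The start sites of the members carry binding motifs of GATA-1, the main transcription factor of the red cell lineage. RefSeq promoter windows on GRCm38.p6 were matched for 6 members, Alas2, Epb42, Hemgn, Rhag, Kel and Klf1. The 250 bases before the start were searched on both strands for the GATA motifs AGATAA or AGATAG or TGATAA or TGATAG. A match was found in 6 of 6 member windows, against 26.5% of 32851 mouse windows of the same length. A CACCC-type box of the kind that Klf1 binds, written CCNCNCCC, was found in 2 of 6 member windows and in 45.9% of all windows. These are matches of letters only. The last 150 bases before the start are shown for Alas2 (chrX:150547267-150547416, plus strand), the brightest member. They are also shown for Hemgn (chr4:46404184-46404333, minus strand), called with age in KO hearts in the main limma model. Kel (chr6:41704326-41704475, minus strand) and Klf1 (chr8:84901832-84901981, plus strand) are shown too, and were called in no comparison of that model. Each sequence runs 5′ to 3′ on the strand of its gene, and capitals mark the GATA matches, with TTATCA and TTATCT the motif on the opposite strand.
Alas2: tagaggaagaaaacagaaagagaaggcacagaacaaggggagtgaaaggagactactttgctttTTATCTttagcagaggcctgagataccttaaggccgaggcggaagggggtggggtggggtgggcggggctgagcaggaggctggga
Hemgn: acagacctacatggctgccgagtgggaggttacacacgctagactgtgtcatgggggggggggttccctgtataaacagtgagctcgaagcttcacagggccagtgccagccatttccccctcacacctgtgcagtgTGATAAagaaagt
Kel: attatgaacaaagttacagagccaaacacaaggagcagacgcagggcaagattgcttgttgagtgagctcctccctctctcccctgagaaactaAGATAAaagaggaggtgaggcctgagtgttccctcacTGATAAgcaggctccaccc
Klf1: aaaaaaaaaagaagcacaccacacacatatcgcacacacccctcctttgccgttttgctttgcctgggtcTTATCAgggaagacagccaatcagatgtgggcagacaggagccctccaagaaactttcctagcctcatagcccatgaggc

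The deposited values were log2 signals on 24 arrays, from 1.07 to 13.51, with array medians of 4.24 to 4.5. Arrays of 1 group correlated with each other at a mean r of 0.985 to 0.993. Ventricular cardiomyocyte markers were bright on every array, with a mean of 9 genes between 11.57 and 12.09. A pair of newborn KO arrays stood apart by liver transcripts. On the newborn KO arrays numbered 1 and 2 the signal of Alb (albumin) was 9.93 and 10.42, and on the 22 other arrays it was 3.06 to 5.59. Afp (alpha-fetoprotein) was at 6.46 and 6.93 on those 2 arrays and at 2.61 to 3.19 on the others, and Apoa1 was at 8.61 and 9.06, against 3.56 to 4.83. The members' results were also computed with this pair left out, which was decided after its values were seen. The erythroid factor Gata1 had medians of 3.15 in P30 KO, 3.17 in P30 WT, 3.16 in newborn KO and 3.2 in newborn WT hearts. The adult globin genes were not analysed here.

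The members differed in where they lay on the arrays. By the mean over 24 arrays Alas2 stood at percentile 88.1 of the genes tested and Slc4a1 at percentile 56.1. The remaining members were dim, with Epb42 at percentile 29.6, Hemgn at 24.5, Klf1 at 21.1, Kel at 20.3 and Rhag at 9.1. For orientation, 990 olfactory receptor genes, which serve the nasal epithelium, had a median of 2.38 and a 90th percentile of 3 on the same scale, beside means of 3.53 for Epb42, 3.24 for Hemgn, 3.07 for Klf1, 3.03 for Kel and 2.53 for Rhag. Probe sets respond unequally, so these positions give no amounts and set no limit of detection. The olfactory genes were chosen for this after the values were seen.

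With age, few of the erythroid genes passed a test. In WT hearts 0 of 7 members passed limma's test between P30 and newborn, at an adjusted p under 0.05 or an unadjusted p under 0.05, where 47.0% and 52.2% of all genes tested did. In KO hearts 2 of 7 passed at either threshold, where 59.0% and 64.0% of all genes did. Slc4a1 was lower at P30, as were 25.0% of all genes, and Hemgn was higher, as were 34.0%. The median log2 fold change of the members at P30 relative to newborn was -0.1 in KO hearts and -0.07 in WT hearts, beside 0.098 and 0.002 over all genes. The difference between the genotypes in the change with age was called for 0 of 7 members. In whole tissue, fewer red cells and less RNA per red cell cannot be told apart.

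Between genotypes, no member was called by limma. In P30 hearts 0 of 7 members differed between KO and WT at an adjusted p under 0.05 and 3 did at an unadjusted p under 0.05, where 1.02% and 15.0% of all genes did. In newborn hearts the counts were 0 and 1 of 7, beside 0% and 9.07% of all genes. The difference between ages of the KO effect was called for 0 of 7 members, with 1 at an unadjusted p under 0.05, beside 0.0106% and 12.9% of all genes.

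Alas2 (chrX:150547417-150570622), which commits glycine and succinyl-CoA to heme in red cell precursors, passed no test with age or genotype. Its log2 signal was 8.37 to 9.01 in P30 KO hearts (median 8.7), 8.32 to 9.35 in P30 WT (median 8.92), 8.38 to 9.36 in newborn KO (median 8.87) and 8.15 to 9.15 in newborn WT (median 8.8). All 4 groups overlapped. The spread lay within groups. On the P30 WT arrays numbered 1, 3 and 5 Alas2 reached 9.35, 9.2 and 9.16, and on those numbered 2, 4 and 6 it was 8.69, 8.61 and 8.32. The newborn WT arrays numbered 5 and 6 were the lowest of all, at 8.15 and 8.16. The log2 fold change of P30 over newborn was -0.18 in KO hearts (95% interval -0.59 to 0.22, limma adjusted p = 0.423) and 0.23 in WT hearts (-0.18 to 0.63, adjusted p = 0.376). KO over WT it was -0.19 at P30 (-0.59 to 0.22) and 0.22 in newborn hearts (-0.18 to 0.63). After median centring of the arrays Alas2 was called higher at P30 in WT hearts, at 0.48 with an adjusted p of 0.0305. On that scale the median of all genes was 0.26, and 9842 of 18819 genes were called higher.

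Slc4a1 (chr11:102348820-102365281), which encodes the chloride and bicarbonate exchanger of the red cell membrane, gave the clearest change. Its log2 signal was 5.55 to 6.06 in P30 KO hearts (median 5.74) and 6.09 to 6.63 in newborn KO hearts (median 6.25), so these groups did not overlap, as for 31.0% of all genes. The log2 fold change was -0.54 ± 0.14 (SE, n = 6 each, limma adjusted p = 0.00298), a level of 0.688-fold at P30. In WT hearts it was 5.77 to 6.64 at P30 (median 6.13) and 6.22 to 6.9 in newborns (median 6.42), and the groups overlapped. The change there was -0.28 ± 0.14 with an adjusted p of 0.115. It was -0.37 without the P30 WT array numbered 1 (adjusted p = 0.0335), -0.03 after median centring (adjusted p = 0.886) and -0.07 after a new quantile normalization (adjusted p = 0.728). In P30 hearts all 6 KO arrays lay below the WT median, with a log2 fold change of -0.42 ± 0.14 KO over WT (unadjusted p = 0.00725, limma adjusted p = 0.15). The newborn difference was -0.17 ± 0.14 (adjusted p = 0.732), and the difference between ages was -0.26 ± 0.2 (adjusted p = 0.613). Without the newborn KO arrays that held liver transcripts, the fall with age in KO hearts was -0.6 with an adjusted p of 0.00501, and it was -0.37 after median centring (adjusted p = 0.0348) and -0.38 after a new quantile normalization (adjusted p = 0.0403).

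Markers of other cell types were also followed in these hearts. Of 7 macrophage markers 7 were higher at P30 in KO hearts and 7 in WT hearts, beside 34.0% and 19.2% of all genes. Of 10 neutrophil markers 6 were lower at P30 in KO hearts and 4 in WT hearts, beside 25.0% and 27.9% of all genes. The mean signal of the neutrophil markers in KO hearts was 3.58 to 3.93 at P30 and 3.95 to 4.79 in newborns. On the newborn KO arrays numbered 1 and 2, which held liver transcripts, it was 4.55 and 4.6. The mean of 6 platelet and megakaryocyte markers was 5.26 to 5.64 in P30 KO, 5.36 to 6.37 in P30 WT, 5 to 6.38 in newborn KO and 4.88 to 5.33 in newborn WT hearts. The mean of 6 atrial markers was 5.9 to 10.41 in P30 KO (median 8.99) and 4.99 to 9.3 in P30 WT hearts (median 5.49). The median log2 fold change of these 6 genes was 2.17 KO over WT at P30. None was called (0 of 6), where 1.02% of all genes were, and the spread within each group was wide. The part of these cell types in the Slc4a1 values was not tested.

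Epb42 (chr2:121017891-121036877), the protein that ties band 3 to the skeleton, was likewise lowest in P30 KO and highest in newborn WT hearts. Its log2 signal was 2.97 to 3.53 in P30 KO (median 3.24), 3.14 to 3.81 in P30 WT (median 3.7), 3.26 to 3.78 in newborn KO (median 3.54) and 3.27 to 4.25 in newborn WT hearts (median 3.76). All 4 groups overlapped. The log2 fold change with age was -0.27 ± 0.14 in KO hearts (adjusted p = 0.0889) and -0.17 ± 0.14 in WT hearts (adjusted p = 0.352). In KO hearts all 6 P30 arrays lay below the newborn median, and the change was called in 2 alternatives, at -0.43 after a new quantile normalization (adjusted p = 0.0057) and at -0.27 when the 12 KO arrays were fitted alone (adjusted p = 0.0414). After median centring it was -0.1 (adjusted p = 0.514). KO over WT, it was -0.33 ± 0.14 at P30 (unadjusted p = 0.0262, limma adjusted p = 0.256), again with all 6 KO arrays below the WT median, and -0.22 ± 0.14 in newborns (adjusted p = 0.653).

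The other membrane members passed no test. Rhag (chr17:40811099-40844094), part of the Rh complex that passes ammonia and carbon dioxide, had medians of 2.56 in P30 KO, 2.42 in P30 WT, 2.6 in newborn KO and 2.54 in newborn WT hearts. In P30 hearts 6 of 6 KO arrays lay above the WT median, with a log2 fold change of 0.18 ± 0.09 (unadjusted p = 0.0443, limma adjusted p = 0.315). Kel (chr6:41686329-41704334), a zinc endopeptidase carried on red cells, had medians of 2.95, 3.07, 2.95 and 3.08 in the same 4 groups. Its log2 fold changes with age were -0.1 ± 0.11 in KO hearts and -0.07 ± 0.11 in WT hearts, with adjusted p-values of 0.453 and 0.645. Each was called with age in KO hearts under 1 other scaling of the arrays, Rhag at 0.25 after median centring (adjusted p = 0.0246) and Kel at -0.29 after a new quantile normalization (adjusted p = 0.0229). The median of all genes in this comparison was 0.27 after centring, so Rhag did not rise beyond it, and 10029 of 18819 genes were called higher. After the quantile normalization that median was 0.01, and 4404 genes were called lower.

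Hemgn (chr4:46393989-46404183) was the other member called, and in the opposite direction to Slc4a1. Its log2 signal was 2.96 to 3.58 in P30 KO hearts (median 3.41) and 2.75 to 3.21 in newborn KO hearts (median 3.08), with 5 of 6 P30 arrays above the newborn median. The log2 fold change was 0.29 ± 0.1 (limma adjusted p = 0.018). In WT hearts it was 3.08 to 3.49 at P30 (median 3.28) and 3.05 to 3.43 in newborns (median 3.36), with a change of -0.01 ± 0.1. The P30 KO arrays numbered 1 (2.96) and 2 (3.21) lay no higher than the highest newborn KO array (3.21). The newborn KO arrays were the low ones, all 6 below the newborn WT median, at -0.23 ± 0.1 KO over WT (unadjusted p = 0.0294, limma adjusted p = 0.493). The difference between ages was 0.3 ± 0.14 (unadjusted p = 0.0474, adjusted p = 0.384). The call with age in KO hearts was lost after a new quantile normalization (0.11, adjusted p = 0.374), with array weights (0.21, 0.0695), without the newborn KO array numbered 6 (0.23, 0.0558) and without the P30 KO array numbered 3 (0.24, 0.052). It held without the arrays with liver transcripts, at 0.36 and an adjusted p of 0.0123.

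Klf1 (chr8:84901982-84905291), which switches on adult beta-globin, had medians of 2.97 in P30 KO, 3.12 in P30 WT, 3.15 in newborn KO and 3.07 in newborn WT hearts. Its log2 fold changes with age were -0.08 ± 0.13 in KO hearts and -0.15 ± 0.13 in WT hearts, and KO over WT they were 0.04 ± 0.13 at P30 and -0.03 ± 0.13 in newborns. All adjusted p-values were at least 0.37. The newborn WT array numbered 3 lay apart at 3.54, and the other 5 newborn WT arrays were at 2.99 to 3.14.

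**Figure D1:**
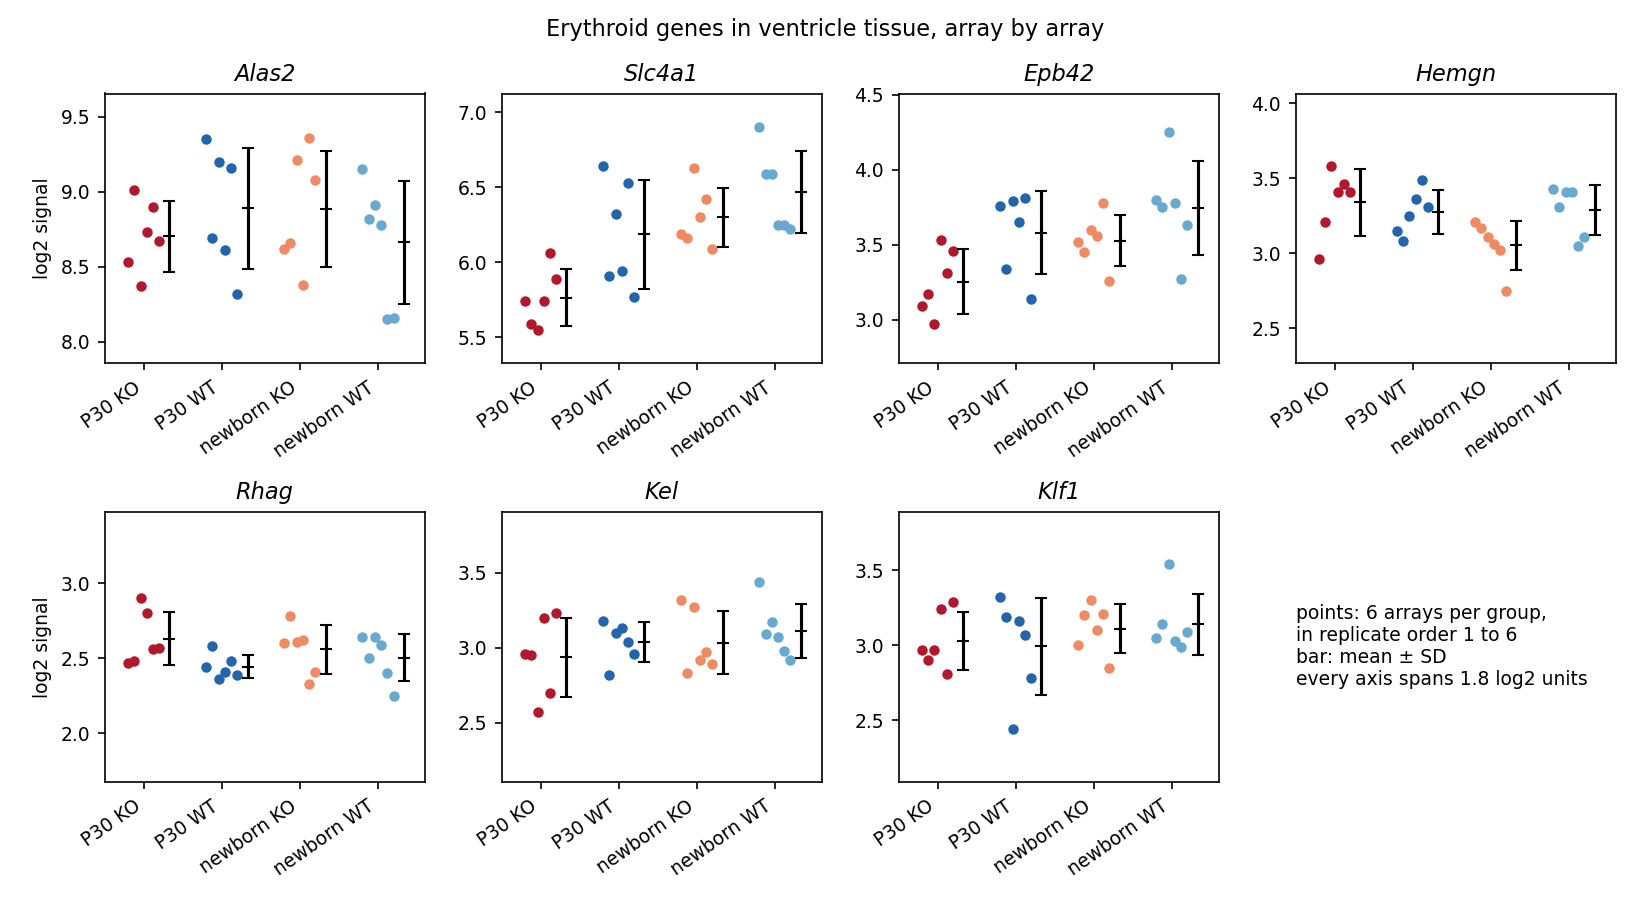
Log2 signal of the 7 measured members on the 24 arrays. Each point is 1 array, the bars give the mean and SD of 6 arrays, and every vertical axis spans 1.8 log2 units. The P30 KO arrays of Slc4a1 lie at 5.55 to 6.06, all below the newborn KO arrays at 6.09 to 6.63, and the other members overlap between all groups.

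**Figure D2:**
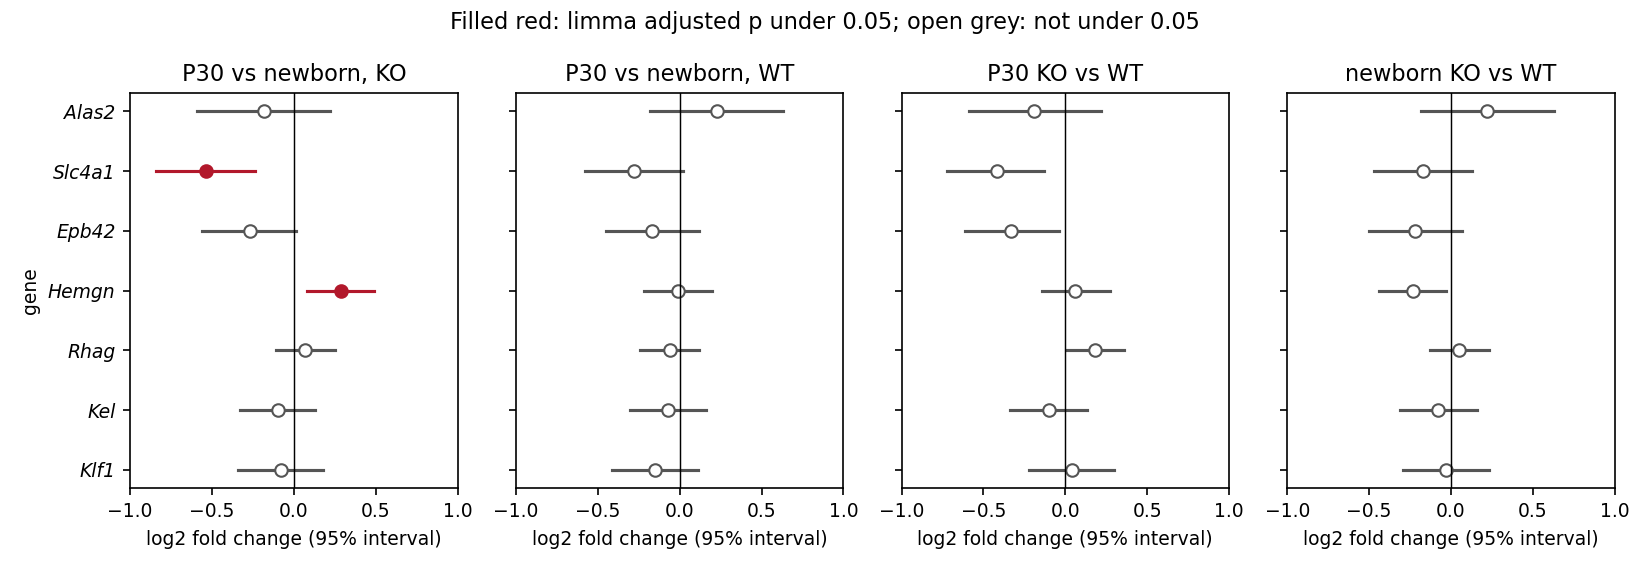
Log2 fold change of each member with its 95% interval from limma, in 4 comparisons of 6 arrays each. Filled red points passed an adjusted p under 0.05, which were Slc4a1 at -0.54 and Hemgn at 0.29 between P30 and newborn KO hearts.

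The scaling of the arrays shifted all genes with age. The median log2 fold change of all genes between P30 and newborn was 0.1 in KO and 0 in WT hearts as deposited, and 0.27 and 0.26 after each array was centred on its median, which moves every gene of an array alike. The members' median was 0.07 in KO and 0.19 in WT hearts after centring. The members' median minus that of all genes was -0.2 in KO and -0.07 in WT hearts on the deposited scale, and -0.28 in KO and -0.13 in WT hearts after a new quantile normalization.

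On the arrays with liver transcripts the brighter members lay within the range of the other newborn KO arrays. On the newborn KO arrays numbered 1 and 2 Alas2 was at 8.62 and 8.66, within the 8.38 to 9.36 of the 4 other newborn KO arrays. Slc4a1 was at 6.19 and 6.16 there and at 6.09 to 6.63 on the others. Epb42 (3.52 and 3.45) and Klf1 (3 and 3.2) were also inside the range of the others. Some dim members were at the edge of the group. Hemgn was at 3.21 and 3.17, the highest of the newborn KO group, above the 2.75 to 3.11 of the others. Rhag was highest on array 2, at 2.78. Kel was highest on array 1, at 3.32, and lowest on array 2, at 2.83. Without these 2 arrays 2 of 7 members were called with age in KO hearts and 0 of 7 in each other comparison, as with all arrays. Of all 18819 genes, 9653 were called with age in KO and 8688 in WT hearts in that refit. Between genotypes 131 were called at P30 and 0 in newborn hearts, and 0 for the difference between ages.

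**Figure D3:**
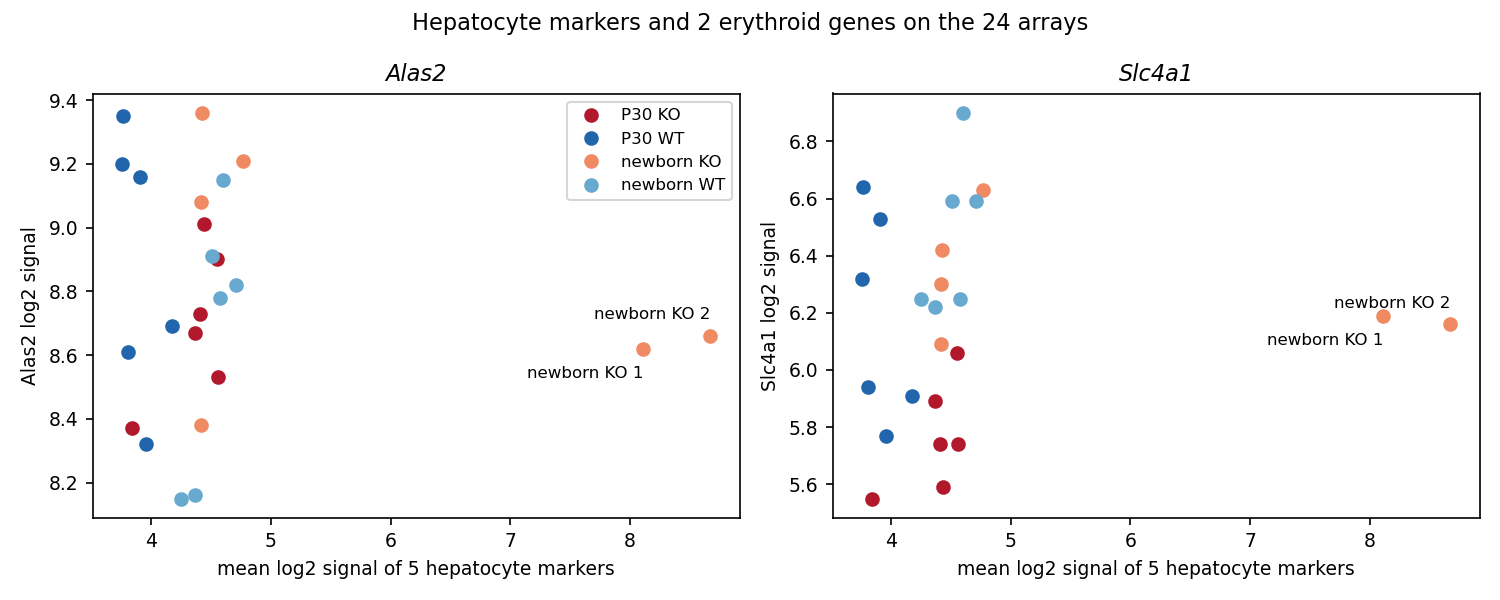
Log2 signal of Alas2 and Slc4a1 against the mean log2 signal of 5 hepatocyte markers (Alb, Afp, Apoa1, Ttr and Ahsg) on each of the 24 arrays, coloured by group. The newborn KO arrays numbered 1 and 2 lie at 8.11 and 8.67 on the horizontal axis, the other 22 arrays at 3.76 to 4.77. Both erythroid genes on those 2 arrays are within the range of the remaining newborn KO arrays.

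Other genes of the red cell programme were called with age in both directions. Of 16 measured genes of heme synthesis and iron uptake, 11 were higher at P30 and 4 lower in KO hearts, and 11 were higher and 2 lower in WT hearts. Of all genes 34.0% were higher and 25.0% lower in KO hearts, and 19.2% were higher and 27.9% lower in WT hearts. Heme and iron import also serve the mitochondria of muscle, and these genes are not restricted to red cells. Tfrc, the transferrin receptor, was 1.19 ± 0.17 higher at P30 in KO and 1.17 ± 0.17 higher in WT hearts in log2 signal (limma adjusted p = 2.05e-06 in KO and 2.24e-06 in WT hearts). Slc25a38, the mitochondrial glycine carrier for heme synthesis, rose by 1.03 ± 0.09 and 0.96 ± 0.09. Cpox, the coproporphyrinogen oxidase, rose by 0.54 ± 0.1 and 0.8 ± 0.1, and Abcb6, a porphyrin transporter, by 0.61 ± 0.11 and 0.74 ± 0.11. The erythroid Alas2 did not pass in either genotype.

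Of 21 other genes of the red cell membrane, skeleton and blood groups, 8 were higher and 6 lower at P30 in KO hearts, and 8 higher and 9 lower in WT hearts. The shares of all genes were 34.0% higher and 25.0% lower in KO hearts, and 19.2% and 27.9% in WT hearts. Sptb (beta-spectrin), which striated muscle also makes, was at 8.3 to 8.79 in P30 KO and 7.78 to 8.05 in newborn KO hearts, a rise of 0.64 ± 0.08, and it rose by 0.69 ± 0.08 in WT hearts. Xk, which carries the Kell protein in the red cell membrane, rose by 0.62 ± 0.1 in KO and 0.76 ± 0.1 in WT hearts, while Kel itself did not pass. Cd24a, a surface antigen of immature blood cells, had log2 fold changes of -1.67 ± 0.22 and -1.6 ± 0.22, and the amino acid carrier Slc43a1 of -1.12 ± 0.21 and -1.32 ± 0.21.

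Among 18 erythroid transcription factors, 4 were higher and 5 lower at P30 in KO hearts, and 3 and 5 in WT hearts, so 9 of 18 were called in KO and 8 of 18 in WT hearts, beside 59.0% and 47.0% of all genes. Bcl11a, which silences fetal globin, had log2 fold changes of -1.59 ± 0.14 in KO and -1.31 ± 0.14 in WT hearts, and Ldb1, the cofactor that joins GATA-1 complexes, of -0.83 ± 0.06 and -0.8 ± 0.06. E2f2, a cell cycle factor, had -0.49 ± 0.17 and -0.93 ± 0.17. Cbfa2t3, a corepressor, was higher by 0.36 ± 0.1 and 0.48 ± 0.1.

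In the erythropoietin pathway 4 of 10 genes were higher and 4 lower at P30 in KO hearts, and 3 and 3 in WT hearts. Of all genes 59.0% were called in KO and 47.0% in WT hearts. Epor, the erythropoietin receptor, had log2 fold changes of -0.4 ± 0.09 in KO (limma adjusted p = 0.000703) and -0.34 ± 0.09 in WT hearts (0.00342). Kit, the stem cell factor receptor, had -0.93 ± 0.11 in either genotype. Stat5a, a signal transducer of the pathway, rose by 0.79 ± 0.08 and 0.52 ± 0.08. Between genotypes at P30, the survival factor Bcl2l1 was higher in KO hearts by 0.44 ± 0.09 (adjusted p = 0.0148) and Tmem14c, a porphyrin carrier of heme synthesis, had -0.44 ± 0.1 (adjusted p = 0.0363). No other gene of the 6 red cell lists was called between genotypes. These were 1 of 10 genes of the pathway and 1 of 16 of heme synthesis and iron uptake, beside 1.02% of all genes at P30. That share was 192 genes, and 19 genes were called when only the P30 arrays were fitted.

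Of 19 late erythroid enzymes and turnover genes, 4 were higher and 3 lower at P30 in KO hearts and 4 and 2 in WT hearts, beside the same 59.0% and 47.0% of all genes. Isg20, an exonuclease, rose by 0.83 ± 0.16 in KO and 1.07 ± 0.16 in WT hearts. Bpgm, which makes the 2,3-bisphosphoglycerate of red cells, had log2 fold changes of 0.09 ± 0.12 (adjusted p = 0.512) and 0.33 ± 0.12 (adjusted p = 0.0228). Of 6 measured globin genes, all embryonic or theta-like, 1 was called in each genotype, again beside 59.0% and 47.0% of all genes. The embryonic Hbb-y had log2 fold changes of -0.18 ± 0.13 in KO and -0.34 ± 0.13 in WT hearts (adjusted p = 0.231 and 0.0362). Hbq1a, named here after its values were seen, was called in KO hearts at 0.278 (adjusted p = 0.0312), on signals of 2.59 to 3.35 at P30 and 2.36 to 2.92 in newborns.

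**Figure D4:**
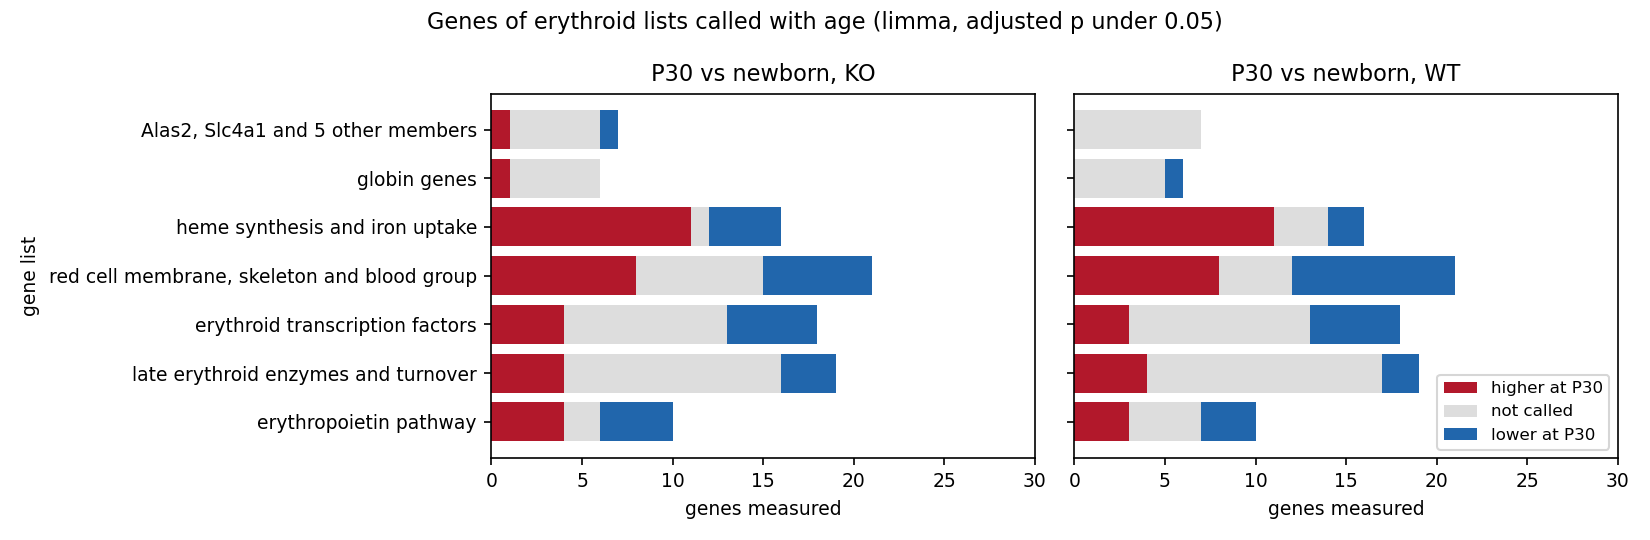
Genes measured in the members and in 6 lists of the red cell programme, split into those higher at P30, not called and lower at P30 (limma adjusted p under 0.05), for KO hearts on the left and WT hearts on the right. Heme synthesis and iron uptake has the most genes higher at P30, with 11 of 16 in each genotype, and the members have 2 of 7 called in KO and 0 of 7 in WT hearts.

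From heart to heart, Slc4a1 and Epb42 moved together at P30. Over the 12 P30 arrays Slc4a1 and Epb42 correlated at Pearson's r = 0.84 (permutation p = 0.00039, adjusted p = 0.00819 over 21 pairs) and Spearman's rho = 0.83 (p = 0.00162, adjusted p = 0.034). Without the 2 arrays farthest from the Slc4a1 median r was 0.77, and it was 0.56 in the 6 KO and 0.84 in the 6 WT hearts. These tests pool both genotypes, and KO over WT the log2 fold change at P30 was -0.42 for Slc4a1 and -0.33 for Epb42. On deviations from the mean of each genotype r was 0.74, given without a test. Alas2 and Slc4a1 correlated at r = 0.79 (permutation p = 0.00244, adjusted p = 0.0256) and rho = 0.66 (p = 0.0221, adjusted p = 0.155), with r = 0.61 without the 2 farthest arrays, 0.35 in KO and 0.96 in WT hearts. The arrays behind this were the P30 WT hearts numbered 1, 3 and 5, which were high for Slc4a1 (6.64, 6.32 and 6.53) as well as for Alas2, while those numbered 2, 4 and 6 were at 5.91, 5.94 and 5.77. The P30 pairs were examined after the values were seen. With the pairs of both ages adjusted together, 42 in all, Slc4a1 with Epb42 had an adjusted p of 0.0164 and Alas2 with Slc4a1 one of 0.0512. Over the 21 P30 pairs r was -0.48 to 0.84 with a median of 0.08, and 12 were positive.

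In newborn hearts all 21 pairs had a positive r over the 12 arrays, from 0.05 to 0.76 with a median of 0.41, and 0 passed an adjusted p of 0.05 by r or by rho (permutation tests, 100000 draws, adjusted over 21 pairs). The 21 pairs share their arrays and are not independent. At an unadjusted p under 0.05 by r stood 6 of them. The highest was Epb42 with Klf1, at r = 0.76 (permutation p = 0.00761, adjusted p = 0.0609) and rho = 0.55 (p = 0.0662, adjusted p = 0.198), which fell to 0.2 without the 2 arrays farthest from the Epb42 median and so rests on those arrays. Slc4a1 with Epb42 had r = 0.61 (permutation p = 0.0337, adjusted p = 0.173) and rho = 0.76 (p = 0.0055, adjusted p = 0.115). Without the 2 arrays farthest from the Slc4a1 median r was 0.79 for this pair, and it was 0.7 in KO and 0.49 in WT hearts. Within genotypes the median r of the 21 pairs was 0.3 in KO and 0.71 in WT hearts (n = 6 each). Alas2 with Hemgn, for example, had r = -0.4 in KO and 0.95 in WT hearts, and Alas2 with Rhag -0.69 and 0.9. The difference between genotypes was not tested. The newborn WT arrays numbered 5 and 6, low for Alas2, were also the lowest of their group for Hemgn (3.05 and 3.11) and Rhag (2.4 and 2.25). After median centring 20 of 21 newborn pairs were positive, with a median r of 0.35. The mean of the members and the median signal of an array correlated at r = 0.42 (permutation p = 0.176) and rho = 0.18 (p = 0.574) over the 12 newborn arrays, at -0.42 without the 2 farthest arrays, and at r = -0.59 in the 6 KO and 0.66 in the 6 WT hearts. Its part in these correlations was not tested.

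The genes most like the mean of the 7 members over the 12 newborn arrays were picked from all other genes tested. By Pearson's r they were Mad2l1bp (0.975), Taz (0.959), Nme6 (0.917), Asl (0.913), Ppfia3 (0.902), Prpf38a (0.902), Birc7 (0.899), Snrpb (0.897), Pkd1l1 (0.893) and Ly6h (0.893), with 0 of 10 on an erythroid list. They include tafazzin (Taz), which remodels the cardiolipin of mitochondria, the urea cycle enzyme argininosuccinate lyase (Asl), and the splicing proteins Snrpb and Prpf38a. The closest gene of the erythroid lists was Cldn13, at r = 0.82 and rank 94 among all other genes. Gata1 had r = 0.04. The 6 red cell lists held 6 to 21 measured genes each among 18819 tested, so 0 of 10 is near their share. The mean was taken on unscaled log2 signals, so Alas2 weighed most, with an SD of 0.39 in newborn KO and 0.41 in newborn WT hearts.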

How the data were processed

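RNA of 24 mouse ventricles was measured on Affymetrix whole-transcript mouse arrays. The deposited values were log2 signals, for which the authors used RMA. R 2.15, oligo 1.22 and limma 3.14 are listed in the submitters' processing notes. The annotation version and any filter were not given in the sources used here. Of 35017 probe sets, 21118 named 1 gene, 1735 several and 12164 none, and 21085 of the first kind were matched to GRCm38.p6 by Entrez identifier. The brightest single-symbol probe set stood for each of 18819 genes. Some genes are not reported here.

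Groups came from the sample labels. A limma model (version 3.58.1, R version 4.3.3) gave each group its own mean over all 24 arrays, with 20 residual degrees of freedom among arrays. Variances were moderated and p-values adjusted by Benjamini-Hochberg over all genes, and calls were made at an adjusted p under 0.05. The number of arrays limits the precision. P-values without another name come from this fit. The 4 comparisons and the difference between ages of the KO effect were tested. No sample was dropped or imputed in it. The procedure was tested on simulated data. Two-sided permutation tests used numpy version 2.4.6.

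The named genes were the members, up to 4 genes of each list with the largest changes with age in WT hearts among those called, and the 10 genes most alike the members. The members and lists were chosen with earlier results of these data known. Batch and scan date were not stated, and sex, not given per sample, was not in the model. The labels name separate hearts only by replicate number, so p-values measure the spread between these samples. Replicate numbers shared by the groups were not treated as pairs in the main model. Among 276 pairs of arrays 0 were identical. The alternatives were a filter at the 30th percentile of mean signal, array weights, a new quantile normalization, median centring, robust moderation with a variance trend, a block for the replicate number, only the arrays compared, the mean of a gene's probe sets, an adjusted p under 0.01, leaving out the newborn arrays numbered 4, and leaving out each array. Leaving out the newborn KO arrays numbered 1 and 2, centred correlations, the P30 correlations and their values on deviations from genotype means were added after the values were seen.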

Additional observations from a re-analysis of the deposited data

Results flagged for a closer look

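Klf1 on the newborn WT array numbered 3, at a log2 signal of 3.54, lay far from the other 5 newborn WT arrays, which were at 2.99 to 3.14. The gap to the nearest of them was 0.73 of the group's whole range, above Dixon's critical value of 0.625 for 6 samples. Of 28 groups of values tested, 1 was marked in this way, and chance gives 1.4.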

How the results depend on the processing

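Over 35 values (7 members in 5 comparisons) and their alternatives, 1158 refitted values in all, 1108 kept their direction and their side of the threshold, 4 lost a call, 6 gained one, 40 uncalled values changed sign and 0 called values did. The fall of Slc4a1 with age in KO hearts stayed called in 34 of 34 alternatives, at -0.6 to -0.37. Refits without a WT array could not move this fold change, nor could the mean of probe sets, as Slc4a1 has 1. The count of 1108 likewise holds refits without an array that was outside the comparison. Members called between P30 and newborn KO hearts, 2 in the main model, were 1 with the 30th percentile filter, array weights or an adjusted p under 0.01, and 1 to 2 without 1 array, and 3 after median centring (2 higher), after quantile normalization (all 3 lower) or with only the arrays compared (1 higher); the filter leaves out Hemgn and the 4 other members under it. In WT hearts, 0 in the main model, 1 was called after median centring and 0 to 1 without 1 array. Calls were common among all 18819 genes in these settings. Median centring called 10029 genes higher and 3011 lower at P30 in KO hearts, and 9842 higher and 2989 lower in WT hearts. Quantile normalization called 4249 higher and 4404 lower in KO hearts. Genes called between newborn KO and WT, 0 in the main model and 1707 at an unadjusted p under 0.05, were 31 with array weights, 482 without both arrays numbered 4, and 0 to 73 without 1 array. Between P30 KO and WT, 192 were called, 19 with only those arrays, 40 at an adjusted p under 0.01 and 108 to 806 without 1 array. For the difference between ages the count of 2 became 7 with the filter, 1 after centring, 4 after quantile normalization, 9 with the trend, 15 with array weights, 79 without both arrays numbered 4, 0 without the newborn KO arrays numbered 1 and 2, 1 at an adjusted p under 0.01 and 1 to 24 without 1 array. The cause was not tested. Of the genes called with age, 57.6% were higher at P30 in KO and 40.8% in WT hearts, 76.9% and 76.7% after centring, and 49.1% and 50.5% after quantile normalization. Between P30 KO and WT this share was 65.6%, against 41.3% after centring and 41.5% after quantile normalization. With the replicate number as a block, 1 gene was called for the difference between ages and no call of a member changed. Same-numbered arrays of different groups had correlations of their deviations from -0.438 to 0.645, over 0.1 in 15 of 36 pairs. Of 24 arrays 10 were closest to their own number, given without a test. Whether same-numbered arrays shared a batch was not tested. Dim signal limits 5 of the 7 members.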
